A study of Mus musculus with 18 samples.

Results

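Rab GTPases are small membrane-bound switches, and the mouse genes that encode them were described here in bone marrow-derived macrophages (BMDMs), immune cells grown from marrow with the growth factor M-CSF. Members were all protein-coding rows named Rab, a number and at most a pair of further letters or digits, which gave 59 of 21734 genes. Rab3ip has a name of that form but encodes an exchange factor and was left out. The macrophages carried 1 of 3 genotypes of the microRNA miR-146a, namely wild type (WT), knockout (KO, no miR-146a) or 3′F, in which miR-146a keeps its seed while its 3′ part is changed. Cells came from 129/B6 mix mice of 6 to 7 months, were cultured for 8 to 9 days with 10 ng/ml M-CSF, and then received fresh medium without (resting) or with 1 ng/ml lipopolysaccharide (LPS, the bacterial ligand of TLR4) for 16 h. The age is that of the labels and of the paper's culture methods. For mass spectrometry lysates, described as split from the same replicates, the paper gives a younger age. There were 3 libraries in each of the 6 groups. The KO and 3′F alleles were made in separately targeted V6.5 embryonic stem cells and bred as separate lines backcrossed to C57BL6/J, WT animals came from both lines, and each allele is a germline change carried by all cells of its animals. An effect of the allele and of the chromosome segment that travelled with it cannot be told apart.

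Rab proteins cycle between an inactive, GDP-bound form in the cytosol and an active, GTP-bound form on membranes, where they recruit effectors that move, tether and fuse vesicles. Each Rab marks certain compartments: Rab1 and Rab2 the traffic between endoplasmic reticulum (ER) and Golgi, Rab5 the early endosome, Rab11 the recycling endosome, Rab7 the late endosome and lysosome, and Rab8, Rab10 and Rab27 routes to the plasma membrane. In macrophages these routes carry TLR4 to and from the cell surface and mature the phagosome, the organelle that digests engulfed microbes.

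Total counts ran from 4071084 to 19818043 per library. All 8 macrophage markers were above 3 counts in each group, with a summed level of 31800 to 87900 CPM (counts scaled to a common library size), and the KO libraries were at the upper end (60500 to 62400 CPM resting and 71200 to 87900 CPM with LPS, against 31800 to 47800 and 45500 to 59900 CPM in WT). Lyz2, the lysozyme gene, held 83.3% to 89.1% of that sum at rest and 80.6% to 85.5% with LPS in these libraries. Single markers differed in direction: Mertk, Fcgr1, Csf1r and Lyz2 at rest and Adgre1, Csf1r and Lyz2 with LPS were above every WT library in all 3 KO libraries, whereas Itgam in both states and Cd68 with LPS were below every WT library. The 8 neutrophil markers summed to 13.7 to 67 CPM, and the lists for dendritic cells, B and T cells, mast cells, stroma and erythroid cells and platelets to at most 4.21 CPM in any library. Resting KO replicate 3 stood apart from the other resting libraries. Its 16 interferon-response genes summed to 14400 CPM, against 669 and 895 CPM in the other resting KO libraries and 181 to 383 CPM in resting WT and 3′F libraries, which is a level within the range of LPS-treated cells (3710 to 19500 CPM). Resting 3′F replicate 3 was the shallowest library and also stood apart, on the second principal component. Calls of Rab genes that were gained or lost without 1 of these 2 libraries are given with the counts of calls or beside the results they touch. The deposited table used here holds protein-coding genes only, so the deletion of miR-146a itself was not checked.

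A microRNA finds its targets mainly through its seed, bases 2 to 8, and a match to the seed in a 3′ UTR is the usual mark of a candidate target. The mature mouse miR-146a-5p (RefSeq, GRCm38.p6, chr11:43374435-43374456, minus strand) and the 5p strands of the mimics that the study designed for the WT and 3′F forms show that seed, here in capitals, is shared while the 3′ part differs.
mmu-miR-146a-5p: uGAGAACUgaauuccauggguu
wild-type mimic, 5p strand: uGAGAACUgaauuccauggg
3'F mimic, 5p strand: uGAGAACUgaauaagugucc

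Matches to the seed were sought in the longest annotated 3′ UTR of each gene (Gencode M21, GRCm38) as the 8mer AGTTCTCA, the 7mer-m8 AGTTCTC or the 7mer-A1 GTTCTCA on the transcript strand. Of the 59 Rab genes 10 held at least 1 match (16.9%), and of the 44 Rab genes with enough reads to be tested 8 did (18.2%), against 22.2% of the 11261 tested genes with an annotated 3′ UTR. The sites in the 8 tested genes are shown with the match in capitals, since they are the places where loss of miR-146a could in principle be read in Rab transcripts. All lie in the 3′ UTR, at the GRCm38 coordinates given after the sequences.
Rab11a, 8mer: aaactgaatgtttgaAGTTCTCAgtta
Rab22a, 8mer: ccttctttaattgacAGTTCTCAacca
Rab5b, 8mer: tccaggggcagccttAGTTCTCAtggc
Rab27a, 7mer-m8: aacaaaacaaaactgAGTTCTCtgaa
Rab10, 7mer-A1: tcctgtgtaggagctGTTCTCAttaa
Rab8a, 7mer-A1: cacctgccttcagctGTTCTCAgttg
Rab40c, 7mer-A1: gaaagagcccttcctGTTCTCAggat
Rab6b, 7mer-A1: gtaggatccaatcagGTTCTCAtaaa
The matches lie at chr9:64716604-64716611 (minus strand) for Rab11a, chr2:173705788-173705795 (plus) for Rab22a, chr10:128677695-128677702 (minus) for Rab5b, chr9:73097460-73097466 (plus) for Rab27a, chr12:3247564-3247570 (minus) for Rab10, chr8:72180535-72180541 (plus) for Rab8a, chr17:25890287-25890293 (minus) for Rab40c and chr9:103183868-103183874 (plus) for Rab6b.

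Macrophages expressed most of the family. Of the 59 genes, 40 were at 1 CPM or more in every library and 32 at 10 CPM or more. The other extreme was Rab39b, which had 0 counts in all 18 libraries, with an upper limit of 3 counts in each, and 5 members, Rab39b among them, never exceeded 3 counts in any library. In all, 15 members did not pass the filter on low counts and were not tested: Rab3b, Rab3c, Rab9b, Rab15, Rab17, Rab25, Rab26, Rab27b, Rab30, Rab33a, Rab36, Rab37, Rab39b, Rab40b and Rab42. None of them exceeded 10 counts or 1.4 CPM. Several are known from neurons, secretory cells or epithelia, such as the synaptic vesicle proteins Rab3b and Rab3c and the epithelial Rab17 and Rab25. The family's summed level was 4640 ± 176 CPM in resting WT cells and 5204 ± 412 CPM with LPS (SD, n = 3). In KO cells it was 4771 ± 232 and 5599 ± 225 CPM, and in 3′F cells 4631 ± 380 and 5205 ± 204 CPM.

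Per kilobase of the gene length in the deposited table, the 5 highest members in WT cells were Rab8b, Rab31, Rab5c, Rab7 and Rab1a, which together held 38.6% of the family's summed CPM per kb. Rab8b, which acts in transport to the plasma membrane, stood at 147 ± 5.23 CPM per kb in resting WT cells and 145 ± 18.2 with LPS (SD, n = 3). Rab31, which acts between the trans-Golgi network and endosomes, was at 147 ± 18.5 and 132 ± 17.8 CPM per kb. Rab5c, an early endosome Rab, was at 120 ± 8.83 and 156 ± 22.9 CPM per kb. Rab7 stood at 123 ± 5.99 and 124 ± 4 CPM per kb, and Rab1a, which carries cargo from ER to Golgi, at 96.5 ± 11.3 and 123 ± 12.3 CPM per kb. In resting cells Rab8b and Rab31 did not differ beyond their spread, nor did Rab5c and Rab7. How the table's gene length was defined is not given in the sources used here. It was shorter than the merged exons of Gencode M21 by 9.71 times for Rab43, 3.94 times for Rab35, 3.13 times for Rab14 and 3.04 times for Rab18, so the place of these genes in the order is uncertain.

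**Figure D1:**
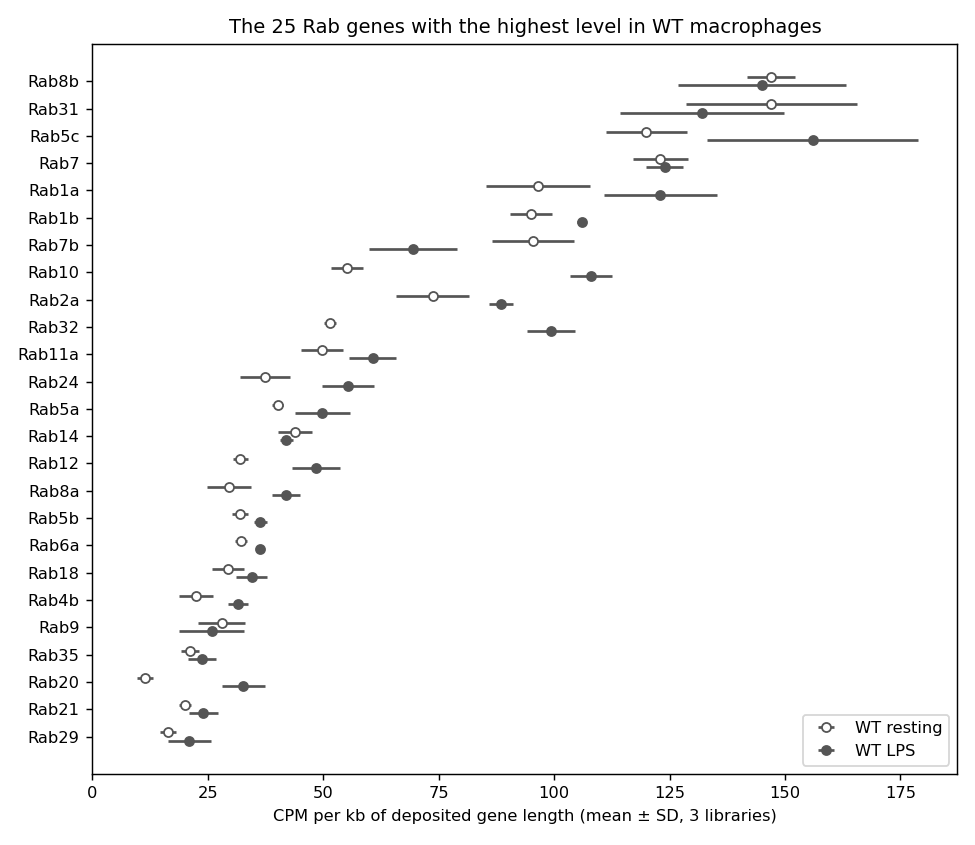
Level of the 25 highest Rab genes in WT macrophages, in CPM per kb of the deposited gene length (x axis), with points for the mean and bars for the SD of 3 libraries. Rab8b and Rab31 lead in resting cells (open points), both at 147, while Rab10 moves from 55.2 to 108 CPM per kb with LPS (filled points).

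The response to LPS was compared within each genotype. Among members called in every genotype, the 4 with the largest rises were Rab38, Rab20, Rab32 and Rab10 of the plasma membrane route. The first 3 belong to the late endosome, lysosome and related organelles, a group with 10 of the 44 tested members. Rab38 rested on very low counts, and Rab7b of the same group fell. In WT cells 16 of the 44 tested members passed an adjusted p of 0.05 (36.4%), 13 higher and 3 lower with LPS, against 28.5% of all 11357 genes tested, 16.3% higher and 12.3% lower. In KO cells 16 passed, 14 higher and 2 lower, against 26.9% of all genes, 14.3% higher and 12.6% lower. In 3′F cells 13 passed, 9 higher and 4 lower, against 31.2%, 17.2% higher and 14% lower. The median log2 fold change of the 44 members was 0.18 in WT, 0.20 in KO and 0.17 in 3′F cells, beside 0.02, 0.02 and -0.01 over all genes tested. All adjusted p-values in these comparisons came from edgeR's quasi-likelihood test over all tested genes with Benjamini-Hochberg adjustment, with 3 libraries per group. The 3 comparisons use separate libraries but come from the same fit, with a shared estimate of spread. In all 3, 9 members passed: Rab4b, Rab5a, Rab7b, Rab10, Rab12, Rab20, Rab32, Rab38 and Rab43. How many of all genes tested passed in all 3 was not computed, so no share stands beside that count. In bulk RNA a change per cell and a change in the share of cells cannot be told apart.

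The counts of calls depended on single libraries. In WT, 8 members passed without LPS replicate 1, 7 without LPS replicate 3, 10 without resting replicate 2 and 8 without resting replicate 3. In KO, 26 passed without resting replicate 3, where Rab1b, Rab4a, Rab5c, Rab6b, Rab8a, Rab19, Rab21, Rab22a, Rab27a, Rab29, Rab35 and Rab44 joined and Rab28 and Rab33b dropped out. In KO cells 7 passed without LPS replicate 2 or without resting replicate 1, and 8 without resting replicate 2. In 3′F cells 15 passed without resting replicate 3, where Rab4a, Rab8a and Rab24 joined and Rab5a dropped out. Rab10, Rab12, Rab20, Rab32 and Rab38 passed in all 3 genotypes under every alternative tried. In fits that left out 1 library, Rab43 also kept its call in WT, Rab11a in KO, and Rab4b, Rab5c, Rab28 and Rab43 in 3′F cells, and each other call was lost in at least 1 such fit, with adjusted p reaching at most 0.21 in WT, 0.199 in KO and 0.177 in 3′F cells. With the animal as a block, Rab1a, Rab2a, Rab5a, Rab11a and Rab40c lost their calls in WT (adjusted p = 0.0744, 0.0817, 0.0502, 0.0786 and 0.111), Rab1a in KO (adjusted p = 0.0876) and Rab40c in 3′F cells (adjusted p = 0.0643).

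**Figure D2:**
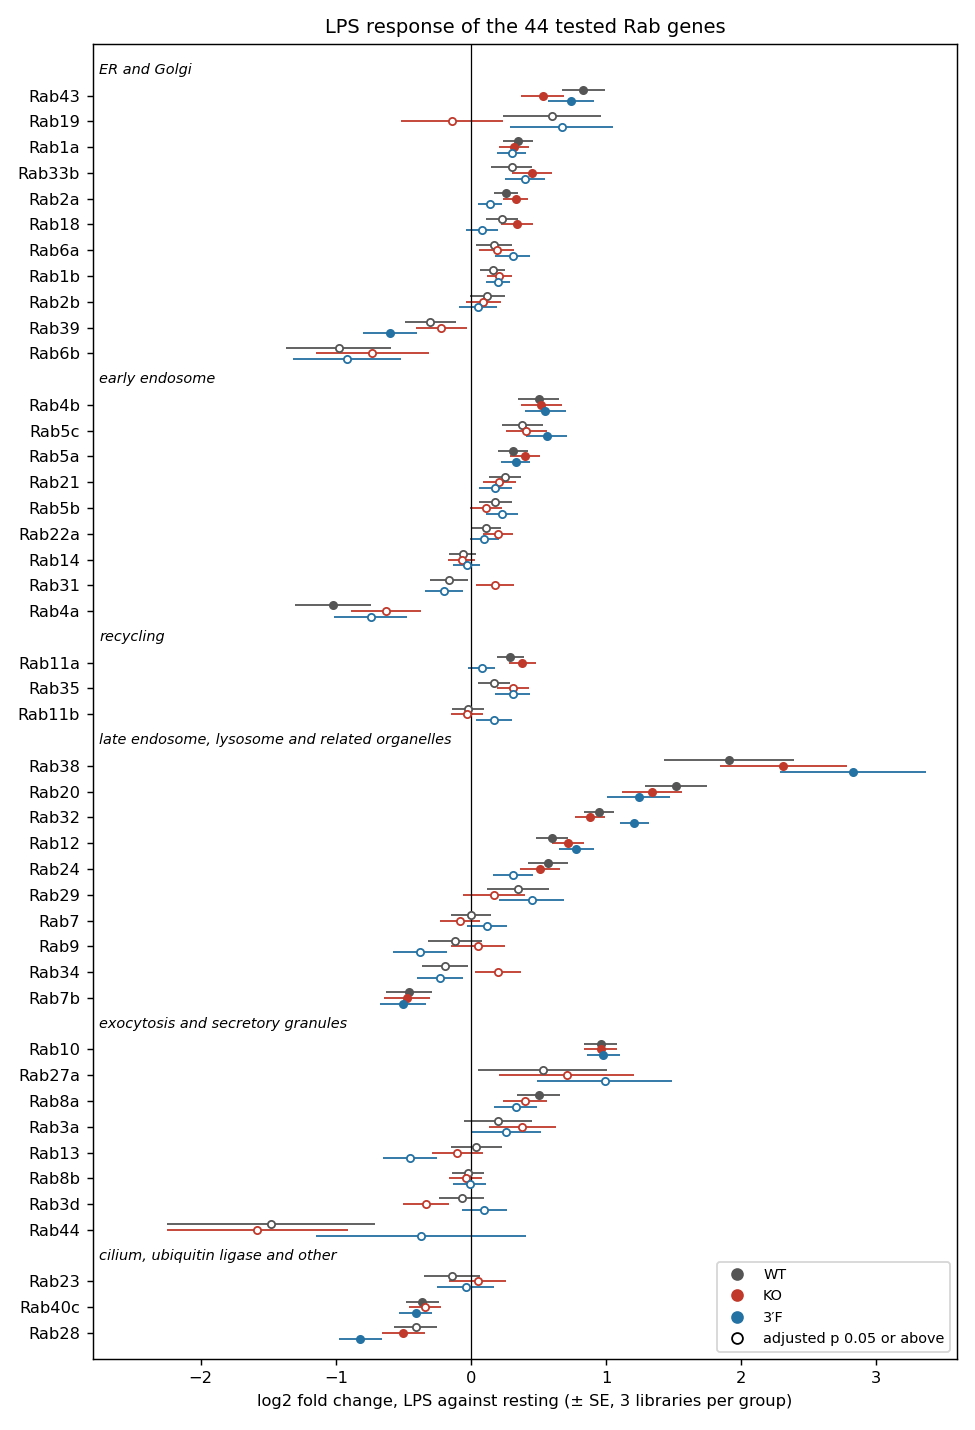
Log2 fold change between LPS and resting cells for the 44 tested Rab genes (x axis), grouped by compartment, in WT (grey), KO (red) and 3′F (blue) cells, with bars for the SE. Filled points passed an adjusted p of 0.05, and Rab38, Rab20, Rab32 and Rab10 sit farthest to the right with filled points in all 3 genotypes, whereas Rab7b sits to the left in all 3.

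Of the late endosome, lysosome and related organelle genes, 10 of 13 were tested, and 5 rose and 1 fell in WT cells, 5 rose and 1 fell in KO cells, and 4 rose and 1 fell in 3′F cells, with median log2 fold changes of 0.46, 0.36 and 0.38. Rab32 (ENSMUSG00000019832, chr10:10545002-10558265, minus strand), which serves lysosome-related organelles and the defence against intracellular bacteria, was at 114, 110 and 108 CPM in resting WT cells and at 219, 201 and 221 CPM with LPS. In KO cells it went from 172, 155 and 136 to 296, 270 and 288 CPM, and in 3′F cells from 100, 101 and 79.8 to 231, 207 and 214 CPM. Every LPS library lay above every resting library of its genotype. The log2 fold changes were 0.95 ± 0.11 (SE, adjusted p = 1.13e-05) in WT, 0.88 ± 0.11 (adjusted p = 1.83e-05) in KO and 1.21 ± 0.11 (adjusted p = 9.86e-07) in 3′F cells.

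Rab38, the close relative of Rab32, had the largest log2 fold change of the members called, at very low counts. Its counts were 8, 2 and 3 in resting WT libraries and 15, 22 and 17 with LPS. In KO cells they were 7, 2 and 4 and then 25, 33 and 15, and in 3′F cells 4, 3 and 0 and then 19, 24 and 9. The groups did not overlap, but resting levels lay near the limit of detection, so that the size of the change is loosely set. The log2 fold changes were 1.91 ± 0.48 in WT (SE, adjusted p = 0.00681), 2.31 ± 0.47 in KO (adjusted p = 0.00152) and 2.83 ± 0.54 in 3′F (adjusted p = 0.000973), and in CPM per kb Rab38 stayed far below Rab32 with LPS, at 0.802 ± 0.145 against 99.3 ± 5.25 in WT cells (SD, n = 3).

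Rab20 (ENSMUSG00000031504, chr8:11453518-11478710, minus strand), known from phagosome maturation, was at 16.3, 13.3 and 18 CPM in resting WT cells and at 49.2, 38.1 and 49.5 CPM with LPS, a log2 fold change of 1.52 ± 0.23 (SE, adjusted p = 0.000146). In 3′F cells it went from 18.1, 20.5 and 19.2 to 50.4, 45.5 and 40.5 CPM, by 1.24 ± 0.23 (adjusted p = 0.000779). In KO cells it was at 32.4, 31.8 and 15.4 CPM at rest, the last in the library that stands apart, and at 60.8, 85.2 and 57.7 CPM with LPS, by 1.34 ± 0.22 (adjusted p = 0.000324), and by 1.08 ± 0.18 without that library. Its promoter is shown because Rab20 was the member with the largest LPS response among those well above the detection limit.
Rab20 promoter: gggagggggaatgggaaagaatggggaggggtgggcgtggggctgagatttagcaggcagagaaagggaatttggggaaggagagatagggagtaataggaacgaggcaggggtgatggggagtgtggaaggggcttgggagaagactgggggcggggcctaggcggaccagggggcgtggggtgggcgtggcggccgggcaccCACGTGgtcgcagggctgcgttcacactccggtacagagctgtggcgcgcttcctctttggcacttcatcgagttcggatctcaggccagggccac
This window (RefSeq, GRCm38.p6, chr8:11478591-11478890, minus strand) runs from 250 bases before to 50 bases after the start of transcription, and the capitals mark an E-box, CACGTG. Motifs searched on both strands were the E-box, the CRE (TGACGTCA), AP-1 (TGANTCA), the interferon-stimulated response element (ISRE, GAAANNGAAA) and the NF-kB site. The E-box was present in 7.15% of 32851 such windows and NF-kB in 4.51%. The Rab20 window held no match to the NF-kB, ISRE, AP-1 or CRE letters, and the windows of Rab10, Rab12 and Rab32 held no match to any of the 5. A match is a string of letters, and binding was not measured.

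Rab12, a kinase substrate that sends transferrin receptor to lysosomes, rose from 65.9 ± 3.34 to 99.8 ± 10.7 CPM in WT cells (SD, n = 3). It rose from 69.5 ± 4.44 to 114 ± 20.7 CPM in KO and from 59.7 ± 4.85 to 103 ± 8.55 CPM in 3′F cells, and in each genotype the resting and LPS libraries did not overlap. The log2 fold changes were 0.60 ± 0.12, 0.72 ± 0.12 and 0.78 ± 0.13 (SE, adjusted p = 0.00194, 0.000436 and 0.000233). Rab24, linked to autophagy, rose by 0.57 ± 0.15 in WT (adjusted p = 0.0102) and by 0.51 ± 0.15 in KO cells (adjusted p = 0.0198), and in 3′F cells without resting replicate 3 by 0.41 ± 0.14 (adjusted p = 0.0442). Without the resting KO library that stands apart, Rab29 rose in KO cells by 0.61 ± 0.16 (adjusted p = 0.00801).

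Rab7b fell in all 3 genotypes. This late endosome Rab is known to lower TLR4 signalling in macrophages by directing the receptor to lysosomes. Its level was 475, 427 and 395 CPM in resting WT cells and 325, 268 and 353 CPM with LPS. In KO cells it went from 319, 349 and 270 to 238, 260 and 182 CPM, and in 3′F cells from 482, 501 and 335 to 311, 324 and 298 CPM. The resting and LPS libraries did not overlap in any genotype. The log2 fold changes were -0.46 ± 0.17 in WT, -0.47 ± 0.17 in KO and -0.50 ± 0.17 in 3′F cells (SE, adjusted p = 0.0483, 0.0459 and 0.0311). The call in WT was lost when any 1 of the 6 libraries was left out. Rab7 itself stayed at 322 ± 15.6 CPM resting and 323 ± 10.4 CPM with LPS in WT cells (SD, n = 3), a log2 fold change of 0.00 ± 0.15 (SE, adjusted p = 0.99), with -0.08 ± 0.15 in KO and 0.12 ± 0.15 in 3′F cells. Resting 3′F replicate 3 was low for Rab7, at 200 CPM against 341 and 355 CPM.

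**Figure D3:**
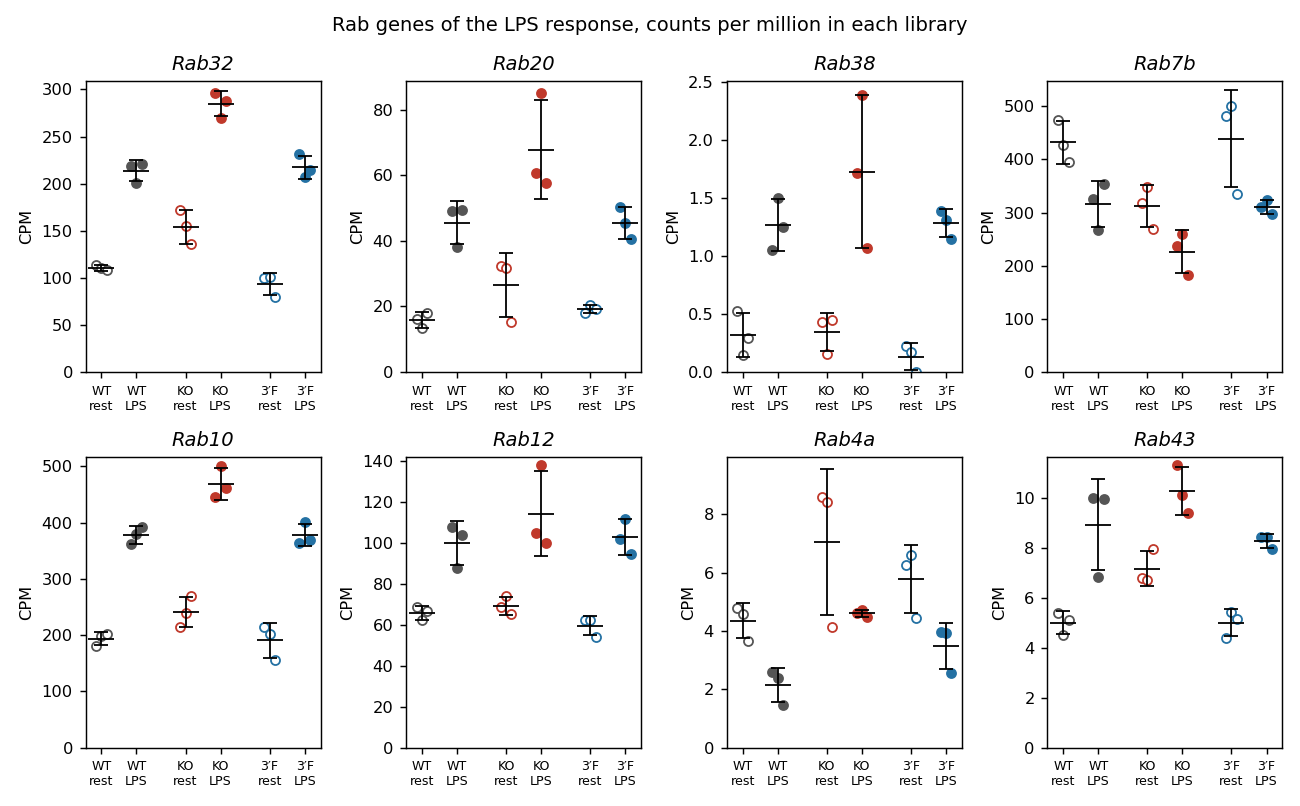
CPM of 8 Rab genes in each of the 18 libraries (points), with the mean and SD of the 3 libraries of a group (bars); resting libraries have open points and LPS libraries filled points, and each panel's y axis starts at 0. Rab32 and Rab10 are separated by LPS in every genotype, and the resting KO library with Rab20 at 15.4 CPM and Rab4a at 4.15 CPM is the library that stands apart.

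Of the 13 genes of exocytosis and secretory granules, 8 were tested, and Rab10 rose in every genotype. Rab10 (ENSMUSG00000020671, chr12:3247428-3309969, minus strand) carries TLR4 from the Golgi to the plasma membrane in macrophages. Its level was 180, 199 and 203 CPM in resting WT cells and 362, 380 and 393 CPM with LPS. In KO cells it went from 215, 239 and 269 to 445, 500 and 461 CPM, and in 3′F cells from 214, 203 and 156 to 364, 401 and 369 CPM. Rab10 about doubled in each genotype, with log2 fold changes of 0.96 ± 0.12, 0.96 ± 0.12 and 0.98 ± 0.12 (SE, adjusted p = 2.59e-05, 2.23e-05 and 1.95e-05). Its 3′ UTR site for the miR-146a seed is the 7mer-A1 match printed above. Rab8a, which also works on the route to the plasma membrane, passed in WT cells, with 160, 123 and 120 CPM at rest and 194, 176 and 203 CPM with LPS. Its log2 fold changes were 0.50 ± 0.16 in WT (adjusted p = 0.0236), 0.40 ± 0.16 in KO and 0.33 ± 0.16 in 3′F cells. Without resting replicate 3 of the genotype it also passed in KO and in 3′F cells, by 0.56 ± 0.15 and 0.48 ± 0.14 (adjusted p = 0.00926 and 0.0164), and its difference between genotypes did not pass the test of interaction. Rab27a, which docks secretory granules and exosome-forming bodies, was low, from 0.765 to 5.77 CPM over all libraries, with log2 fold changes of 0.53 ± 0.48, 0.71 ± 0.50 and 0.99 ± 0.50 that did not pass. Without the resting KO library that stands apart, where Rab27a was at 3.82 CPM against 1.17 and 0.765 CPM, the change in KO cells was 1.58 ± 0.46 (adjusted p = 0.0138).

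All 9 early endosome genes were tested. In WT cells 2 rose and 1 fell, in KO cells 2 rose, and in 3′F cells 3 rose. Rab5a, which fuses early endosomes, rose by 0.31 ± 0.11 in WT, 0.40 ± 0.11 in KO and 0.33 ± 0.11 in 3′F cells (SE, adjusted p = 0.0499, 0.0154 and 0.037). The call in 3′F cells was lost without resting replicate 3 (0.19 ± 0.10, adjusted p = 0.177). Its relative Rab5c rose by 0.56 ± 0.15 in 3′F cells (adjusted p = 0.00974), with 0.38 ± 0.15 in WT and 0.41 ± 0.15 in KO cells, which did not pass. Without the resting library that stands apart in each genotype, Rab5c passed in KO cells too, by 0.60 ± 0.14 (adjusted p = 0.0024), and rose by 0.42 ± 0.15 in 3′F cells (adjusted p = 0.0454). Rab14, which slows phagosome maturation, showed log2 fold changes of -0.06 ± 0.10, -0.07 ± 0.10 and -0.03 ± 0.10. Rab4a, the Rab of fast endosome recycling, was at 4.8, 4.59 and 3.67 CPM in resting WT cells and at 2.58, 2.39 and 1.47 CPM with LPS. It fell by 1.02 ± 0.28 on the log2 scale (adjusted p = 0.0133), and in KO and 3′F cells its values were -0.63 ± 0.26 and -0.74 ± 0.27. Without the KO library that stands apart the value in KO cells was -0.88 ± 0.22 (adjusted p = 0.00569), and without resting 3′F replicate 3 the value in 3′F cells was -0.89 ± 0.28 (adjusted p = 0.0296). Rab4b, which shares that role, rose by 0.50 ± 0.15, 0.52 ± 0.15 and 0.55 ± 0.15 (adjusted p = 0.0209, 0.0159 and 0.0116). In the annotation Rab4b shares 1280 exon bases on the same strand with the gene Gm21983, so its counts are uncertain.

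Of the 14 ER and Golgi genes 11 were tested, and 3 rose in WT, 5 rose in KO, and 1 rose and 1 fell in 3′F cells. Rab1a rose by 0.35 ± 0.11 in WT and 0.32 ± 0.11 in KO cells (SE, adjusted p = 0.0315 and 0.0459), and Rab2a, which also works between ER and Golgi, by 0.26 ± 0.09 and 0.33 ± 0.09 (adjusted p = 0.0357 and 0.0108). Rab43, an ER and Golgi Rab, rose in all 3 genotypes, by 0.83 ± 0.16, 0.53 ± 0.16 and 0.74 ± 0.17 (adjusted p = 0.0013, 0.0211 and 0.00357). It shares 4164 exon bases with the gene Gm45140 on the same strand, so its counts are uncertain. In KO cells Rab33b, which binds an autophagy complex at the Golgi, rose by 0.45 ± 0.15 (adjusted p = 0.0341) and Rab18, found on lipid droplets, by 0.34 ± 0.12 (adjusted p = 0.0424). Without the KO library that stands apart the call of Rab33b was lost (0.40 ± 0.16, adjusted p = 0.0679). In that fit Rab19 rose by 0.76 ± 0.21 and Rab6b fell by 1.11 ± 0.31 on the log2 scale (adjusted p = 0.00864 and 0.011). Rab39 fell in 3′F cells by 0.60 ± 0.20 on the log2 scale (adjusted p = 0.0347).

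Among recycling genes 3 of 6 were tested. Rab11a, the Rab of the recycling endosome that also brings TLR4 to phagosomes, rose by 0.29 ± 0.10 in WT and 0.38 ± 0.10 in KO cells (SE, adjusted p = 0.039 and 0.00931), with 0.08 ± 0.10 in 3′F cells. In the last group of 4, cilium and ubiquitin ligase genes, 3 were tested and none rose. Rab28, a ciliary Rab, was at 35.3, 39.5 and 62.3 CPM in resting 3′F cells and at 27.8, 24.4 and 24 CPM with LPS. It fell by 0.82 ± 0.16 on the log2 scale there (adjusted p = 0.00133) and by 0.50 ± 0.16 in KO cells (adjusted p = 0.0302), with -0.41 ± 0.16 in WT cells. The call in KO cells was lost without the KO library that stands apart (-0.47 ± 0.18, adjusted p = 0.0551). The library at 62.3 CPM in 3′F cells is the shallowest one, and without it the value there was -0.60 (adjusted p = 0.000833). Rab40c, part of a ubiquitin ligase, fell by 0.36 ± 0.12 in WT and 0.41 ± 0.12 in 3′F cells (adjusted p = 0.0374 and 0.02), and its value in KO cells was -0.34 ± 0.12.

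Several Rab genes come as close relatives with the same number, and the ratio of counts within a library does not depend on how libraries are scaled. For the 11 pairs of tested members that share a number, the log2 ratio (with 0.5 added to each count) was compared between LPS and resting libraries with a two-sided exact permutation test that reassigned the state freely among the 6 libraries of each genotype, and p-values were adjusted over the 11 pairs. This comparison was added after the data had been seen. The ratio moved in 9 of 11 pairs. Ratios of other pairs of genes were not computed, so no share over all genes stands beside that count. Rab4a against Rab4b fell by 1.32 on the log2 scale, in 9 of 9 pairs of libraries with the same number (permutation p = 0.00025, the smallest that 8000 permutations can give, adjusted p = 0.00137). Counts in that pair went down to 19, and the exon overlap of Rab4b with Gm21983 leaves the ratio uncertain. Rab7 against Rab7b rose by 0.50, in 9 of 9 (permutation p = 0.00025, adjusted p = 0.00137). Rab8a against Rab8b rose by 0.45, in 8 of 9 (permutation p = 0.002, adjusted p = 0.00733).

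In the other pairs the shifts were smaller, apart from that of Rab6a against Rab6b, which also rested on low counts. Rab6a against Rab6b rose by 0.99 in 8 of 9, although Rab6b fell to 4 counts in 1 library (permutation p = 0.00625, adjusted p = 0.0138). Rab5b against Rab5c fell by 0.27 in 7 of 9 (permutation p = 0.006, adjusted p = 0.0138), and the ratios of Rab1a, Rab2a, Rab3a and Rab5a to Rab1b, Rab2b, Rab3d and Rab5b rose by 0.14 to 0.35 (adjusted permutation p from 0.0254 to 0.0493). The ratio of Rab11a to Rab11b shifted by 0.20 (permutation p = 0.0887) and that of Rab5a to Rab5c by -0.11 (permutation p = 0.0715), and neither passed. With the state swapped only within the 9 pairs of libraries, which keeps resting and LPS libraries of 1 animal together, the smallest p that 512 arrangements can give was 0.00391. In that permutation test 8 pairs passed (adjusted p at most 0.0483), Rab4a against Rab4b and Rab7 against Rab7b with an adjusted p of 0.0143 and Rab8a against Rab8b with 0.0215, and Rab2a against Rab2b did not pass (adjusted p = 0.0621). Lengths do not enter, because each ratio is compared with itself.

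**Figure D4:**
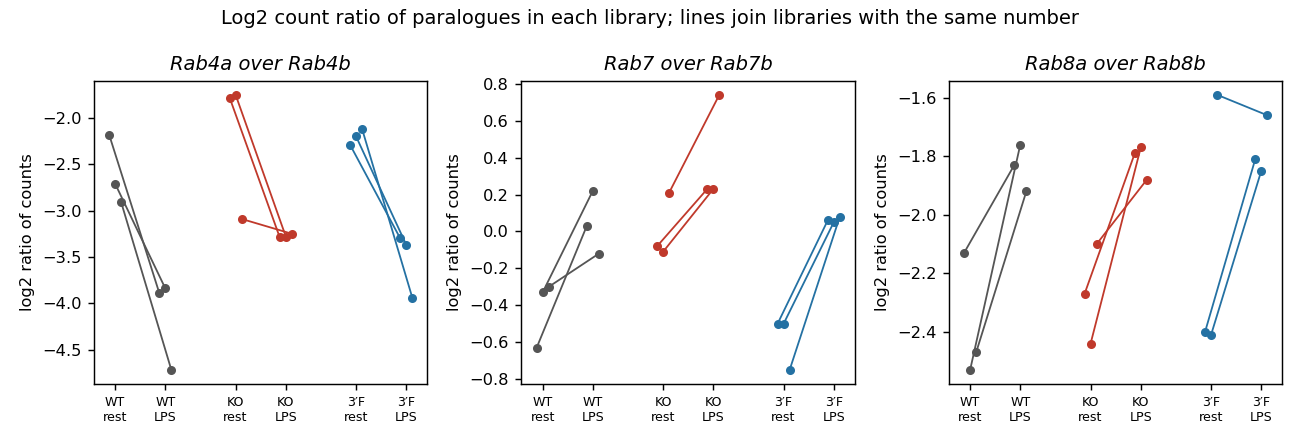
Log2 ratio of the counts of Rab4a to Rab4b, Rab7 to Rab7b and Rab8a to Rab8b (y axes, not starting at 0) in each library, with lines joining the resting and LPS libraries of a genotype that carry the same number. Lines fall in all 9 cases for Rab4a over Rab4b and rise in all 9 for Rab7 over Rab7b, and for Rab8a over Rab8b 1 of the 9 falls.

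Loss of miR-146a was examined by comparing KO with WT cells, where few Rab genes differed. At rest 2 of 44 passed (4.55%), against 9.4% of all genes tested, and with LPS 3 of 44 (6.82%) against 4.79%. All 5 calls, with Rab32 in both states, were higher in KO cells. How the calls over all genes split by direction was not computed for comparisons between genotypes. The median log2 fold change over the 44 was 0.10 at rest and 0.15 with LPS, beside 0.02 and 0.01 over all genes tested. Of the 8 macrophage markers, 4 at rest and 3 with LPS were above every WT library in all KO libraries, and 1 and 2 below, as given above, and their part in these differences was not tested.

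Rab32 was higher in KO than in WT cells in both states, with no overlap of libraries. At rest it was at 172, 155 and 136 CPM in KO against 114, 110 and 108 CPM in WT, a log2 fold change of 0.48 ± 0.11 (SE, adjusted p = 0.0116), and without the KO library that stands apart it was 0.57 ± 0.11 (adjusted p = 0.00604). With LPS it was at 296, 270 and 288 against 219, 201 and 221 CPM, by 0.42 ± 0.11 (adjusted p = 0.0369), a call that was lost when any 1 of the 6 libraries was left out. Its longest 3′ UTR held no match to the seed of miR-146a. Rab20 was higher at rest by 0.75 ± 0.23 (adjusted p = 0.0498), and since resting KO replicate 3 was at 15.4 CPM and within the WT range of 13.3 to 18 CPM, the groups overlapped. Without that library the difference was 1.02 ± 0.18 (adjusted p = 0.00355). The call for Rab20 was lost on leaving out any of the other 5.

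With LPS, Rab4a was at 4.61, 4.71 and 4.49 CPM in KO against 2.58, 2.39 and 1.47 CPM in WT cells, a log2 fold change of 1.09 ± 0.28 (SE, adjusted p = 0.0362). Rab34, a Rab of lysosome position and of cilia, was at 14.6, 12.8 and 14.5 against 9.84, 9.49 and 6.89 CPM, by 0.67 ± 0.17 (adjusted p = 0.0328). Rab34 (chr11:78188430-78192193, plus strand) lies on the chromosome of miR-146a, and whether its stretch travelled with the KO allele was not tested. Neither pair of groups overlapped. The call of Rab4a was lost in each of the 6 fits that left out a library, and that of Rab34 in all but the fit without WT replicate 1. The counts of calls moved with single libraries in the same way. At rest 0 passed without WT replicate 2, 1 (Rab32) passed without any 1 of WT replicates 1 and 3 and KO replicates 1 and 2, and 4 passed without KO replicate 3, where Rab4a (0.96 ± 0.23, adjusted p = 0.0178) and Rab19 (-0.87 ± 0.21, adjusted p = 0.0178) joined Rab32 and Rab20. With LPS 1 passed without WT replicate 1 and 0 without any of the other 5.

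Rab19 illustrates that library. It was at 8.34, 8.28 and 7.54 CPM in resting WT cells and at 4.51 and 4.28 CPM in the first 2 resting KO libraries, but at 16.7 CPM in KO replicate 3, whose interferon-response genes were high. With LPS it was at 10.9, 10.9 and 14.9 CPM in WT and 6.89, 7.39 and 8.13 CPM in KO cells, a log2 fold change of -0.71 ± 0.36 between the genotypes (SE, adjusted p = 0.331), with no overlap. In these LPS libraries the interferon-response genes summed to 3710 to 19500 CPM in WT and 12300 to 16900 CPM in KO cells. A link of Rab19 to the interferon response was not tested. The promoter of Rab19 is shown because it was the only 1 of the 48 Rab genes with a window in the table to hold the ISRE letters, which were present in 3.44% of all windows.
Rab19 promoter: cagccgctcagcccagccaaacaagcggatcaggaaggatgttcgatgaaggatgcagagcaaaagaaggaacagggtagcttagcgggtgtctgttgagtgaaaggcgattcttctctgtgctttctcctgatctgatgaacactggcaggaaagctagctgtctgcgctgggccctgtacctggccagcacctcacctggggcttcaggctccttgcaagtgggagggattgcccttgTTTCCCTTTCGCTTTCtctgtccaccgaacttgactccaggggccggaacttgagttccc
The window (RefSeq, GRCm38.p6, chr6:39381103-39381402, plus strand) holds 2 overlapping ISRE matches on the opposite strand, in capitals. Rab29, a Rab of the lysosome and trans-Golgi, was also high in that library, at 47.2 CPM against 24.5 and 20.6 CPM, and Rab3d, a secretory granule Rab, at 121 against 68.6 and 69.4 CPM. The letters of the ISRE were not in the Rab29 window.

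The 8 tested genes with a seed match did not stand out between KO and WT cells. None passed in either state, 5 of 8 were above 0 at rest and 6 of 8 with LPS, and their median log2 fold change was 0.09 at rest and 0.10 with LPS, beside 0.12 and 0.18 for the 36 tested Rab genes without a match. Of the 36 without a match, 26 were above 0 at rest and 30 with LPS. Over all 2497 tested genes with a match the median was 0.02 in both states, and 1332 and 1343 were above 0. For the 8764 tested genes without a match the median was 0.02 at rest and 0.01 with LPS. Among genes with the longest match, the 8mer, Rab11a gave 0.11 ± 0.10 at rest and 0.20 ± 0.10 with LPS, Rab22a 0.07 ± 0.11 and 0.16 ± 0.11, and Rab5b 0.19 ± 0.12 and 0.11 ± 0.12 (SE). Rab10 gave 0.31 ± 0.12 in both states (adjusted p = 0.119 and 0.162). Rab6b was lower in KO, by -0.88 ± 0.39 and -0.62 ± 0.42, at 0.449 to 4.2 CPM over all libraries.

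Between 3′F and WT cells no Rab gene passed in either state. At rest 1 of 44 had an unadjusted p under 0.05 (Rab32, -0.23 ± 0.11, adjusted p = 0.843), and with LPS 2 did (Rab4a, 0.72 ± 0.29, and Rab39, -0.44 ± 0.20). DESeq2 called 0 in both states. At an adjusted p under 0.05, 0% of all genes tested passed at rest and 0.00881% with LPS. Their share at the unadjusted threshold was not computed. The median over the 44 was -0.01 at rest and 0.00 with LPS, and the range ran from -0.89 to 0.44 and from -0.44 to 0.72.

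KO was also set against 3′F cells, a comparison that shares the KO libraries with the one against WT. At rest 2 of 44 passed (Rab32 and Rab35), against 12.9% of all genes, and with LPS 2 of 44 (Rab35 and Rab39), against 3.88%, and all were higher in KO. Rab32 was at 172, 155 and 136 against 100, 101 and 79.8 CPM at rest, by 0.72 ± 0.11 (SE, adjusted p = 0.00177), and with LPS by 0.39 ± 0.11 (adjusted p = 0.0548). Rab35, which returns cargo from endosomes to the plasma membrane, was at 17.1, 16.5 and 18.7 against 12.5, 13 and 12.2 CPM at rest and at 21.8, 21.2 and 21.7 against 13.8, 17.9 and 15 CPM with LPS. The groups did not overlap in either state, and the log2 fold changes were 0.47 ± 0.13 and 0.46 ± 0.12 (adjusted p = 0.0248 and 0.0442). Rab39 with LPS was at 7.23, 5.43 and 6.06 against 2.93, 3.89 and 2.57 CPM, by 0.97 ± 0.20 (adjusted p = 0.0125). The resting call of Rab35 was lost without resting KO replicate 3 (0.42 ± 0.14, adjusted p = 0.0668), without resting 3′F replicate 3 (0.46 ± 0.13, adjusted p = 0.0512) and without both (0.42 ± 0.14, adjusted p = 0.0867). WT means lay between, with Rab35 at 15.1 ± 1.38 and 17 ± 2.17 CPM and Rab39 with LPS at 4.32 ± 0.81 CPM (SD, n = 3). Single WT libraries overlapped with KO for Rab35 at rest, and with 3′F for Rab35 and Rab39 with LPS. At rest 4 passed without 3′F replicate 1, with Rab10 and Rab28 added, and 3 without KO replicate 2, with Rab29 added. Without KO replicate 3, Rab20 passed (0.74 ± 0.18, adjusted p = 0.0212) beside Rab32, and without 3′F replicate 3, Rab7b (-0.64 ± 0.15, adjusted p = 0.0241) beside Rab32. Without both, Rab20 (0.76 ± 0.19, adjusted p = 0.0265), Rab32 and Rab7b (-0.53 ± 0.14, adjusted p = 0.0386) passed. With LPS 0 passed without KO replicate 1, 3′F replicate 1 or 3′F replicate 3, and 1 (Rab39) without KO replicate 2 or 3.

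**Figure D5:**
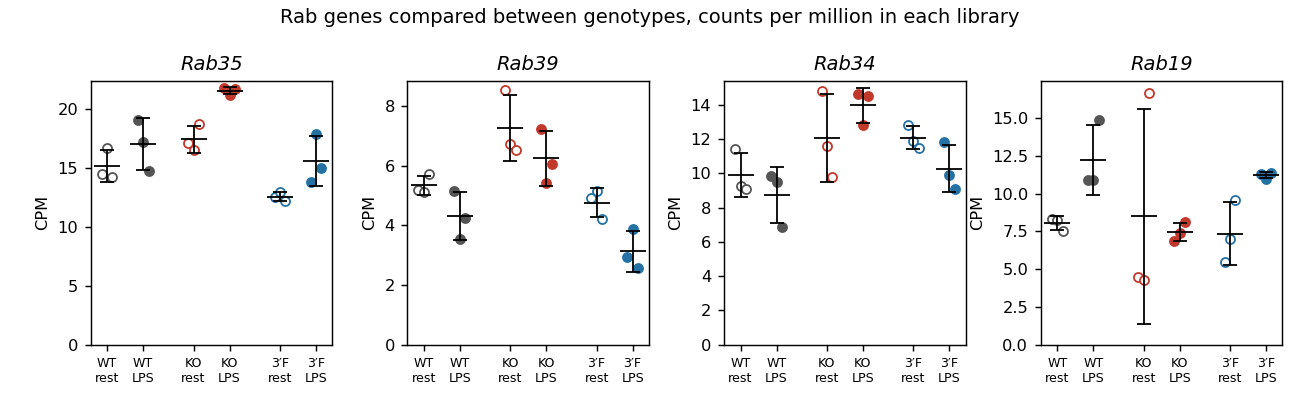
CPM of Rab35, Rab39, Rab34 and Rab19 in each library (points, open for resting and filled for LPS), with the mean and SD of 3 libraries (bars) and y axes from 0. Rab35 is at 21.2 to 21.8 CPM in KO cells with LPS, above every WT and 3′F library, and Rab19 in the KO library that stands apart is at 16.7 CPM, above every other library.

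Whether the response to LPS itself differed between genotypes was tested as an interaction. No Rab gene passed for KO against WT or for 3′F against WT, none of the 44 had an unadjusted p under 0.05 in either, and DESeq2 called 0 in both. At an adjusted p under 0.05, 0.00881% of all genes tested passed for KO and 0% for 3′F. Their share at the unadjusted threshold was not computed. For Rab10 the difference in response between KO and WT was 0.00 ± 0.17, for Rab32 -0.07 ± 0.15, for Rab20 -0.18 ± 0.32 and for Rab7b -0.01 ± 0.23 (SE, log2 scale). For 3′F against WT these were 0.02 ± 0.17, 0.26 ± 0.15, -0.28 ± 0.32 and -0.04 ± 0.23.

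Rab proteins depend on regulators, and 108 of these were listed, of which 98 were tested: exchange factors that switch Rabs on, GTPase activating proteins (GAPs) that switch them off, recycling and prenylation factors, and effectors. With LPS 16 rose and 20 fell in WT (36.7%), 15 rose and 18 fell in KO (33.7%), and 20 rose and 22 fell in 3′F cells (42.9%), beside the shares of all genes given above. Of the 33 GAPs tested, 5 rose and 10 fell in WT, 3 rose and 8 fell in KO, and 8 rose and 11 fell in 3′F cells, with medians of -0.29, -0.15 and -0.18. Tbc1d4, a GAP that acts on Rab10, showed log2 fold changes of -1.29 in WT, -1.12 in KO and -1.14 in 3′F cells. Tbc1d2, a GAP for Rab7, showed -1.09, -1.40 and -0.93, Tbc1d16 -1.23, -1.45 and -1.05, and Tbc1d13 1.41, 1.18 and 1.55 (SE from 0.15 to 0.29), and each of these passed in all 3 genotypes. Rab3ip, the exchange factor for Rab8, passed with 0.71, 0.94 and 0.70. The effectors Rab11fip1 and Mical1 passed with 1.49, 1.5 and 1.61 and with -2.19, -2.58 and -1.90.

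Between KO and WT cells 4 of 98 regulators passed at rest (4.08%) and 2 with LPS (2.04%), below the 9.4% and 4.79% of all genes tested. Mical1, an actin-oxidising effector of several Rabs, was lower in KO by -0.72 at rest and -1.10 with LPS. Tbc1d15, a GAP for Rab7, was lower at rest (-0.58) and Tbc1d2 with LPS (-0.66), while Lrrk1, a kinase of Rab7, and Ehbp1l1 were higher at rest by 0.56 and 0.39 (all adjusted p-values under the threshold of 0.05). None of the 98 passed between 3′F and WT cells in either state or in either interaction. All calls of regulators, with LPS and between genotypes, come from the fit of all 18 libraries alone. Whether they hold without single libraries, resting KO replicate 3 among them, was not examined.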

How the data were processed

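RNA from 18 BMDM cultures was depleted of rRNA and made into strand-specific libraries. Per the labels and the study's methods, the authors trimmed reads with cutadapt 1.8.3, removed rDNA reads and aligned the rest to mm10 with HISAT2 2.1.0, and counted reads per gene on the transcript strand with featureCounts 1.5.3 and Gencode M15, keeping alignments of high mapping quality. The values are the deposited whole-number counts of protein-coding genes, and a gene length stands beside them. No other normalization had been applied.

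From these counts, genes with low counts were removed with filterByExpr over the 6 groups, which left 11357 of 21734 genes holding at least 99.56% of each library's counts. All 18 libraries were fitted with edgeR 4.0.16 (R 4.3.3, TMM scaling, quasi-likelihood F test, two-sided) with a term for each group, p-values were adjusted over all tested genes, and an adjusted p under 0.05 was called. CPM were computed with TMM-scaled library sizes. Error is the SD over 3 libraries or the SE of the fitted log2 fold change, and a limit of 3 counts stands for a count of 0. Counting error falls with depth, so values from the shallowest library are the least precise. The fits were tried on simulated counts with the same spread for every gene and no library standing apart. That trial does not cover the resting libraries that stand apart here. Alternatives were DESeq2 1.42.0, RLE scaling, no filter, the compared groups only, a replicate block, Rab3ip as a member, and leaving out libraries.

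The members, gene lists and roles were chosen with earlier results of these data known. Named were members called in any comparison, 10 fixed for their roles in TLR4 traffic and phagosomes, and the 5 highest per kb, and further members were named after their values were seen. Gene positions and 3′ UTRs came from Gencode M21, a later release than the authors used, and promoters and the microRNA from RefSeq (GRCm38.p6). Proteins were not used here.

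Labels give 3 mice per genotype in separate cultures, and the library column names share a letter between the resting and LPS libraries of 1 number, which were taken as 1 animal. Deviations from group means correlated by 0.0283 to 0.318 between them, and 8 of 9 resting libraries correlated best with their own number. Across genotypes numbers do not mark a shared animal (r from -0.287 to 0.214).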

Additional observations from a re-analysis of the deposited data

How the results depend on the processing

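The 54 calls of Rab genes in the fit of all 18 libraries were recomputed in 627 alternative values, and calls of regulators were not. Of these, 444 kept direction and call, 183 kept direction but lost the call, and 0 reversed. The 19 calls kept throughout were those of Rab10, Rab12, Rab20, Rab32 and Rab38 with LPS in all 3 genotypes, Rab43 in WT and 3′F, and Rab5c and Rab28 in 3′F cells. Without the filter on low counts the number of Rab genes called was 10 for LPS in WT and 8 in KO, 1 for KO against WT with LPS and 1 for KO against 3′F with LPS. With only the compared groups it was 8 for LPS in 3′F, 0 for KO against WT at rest, 0 for KO against 3′F at rest and 7 for KO against 3′F with LPS. RLE scaling left 1 for KO against WT at rest, and DESeq2 gave 5 for KO against 3′F at rest. Leaving out 1 library gave 7 to 16 for LPS in WT, 7 to 26 in KO and 11 to 15 in 3′F, 0 to 4 for KO against WT at rest and 0 to 1 with LPS, 2 to 4 for KO against 3′F at rest and 0 to 2 with LPS. Without both resting libraries that stand apart, an alternative chosen after seeing the data, 25 passed for LPS in KO, 18 in 3′F, 4 for KO against WT at rest and 3 for KO against 3′F at rest. The cause was not tested.

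With the animal as a block, 11, 15 and 14 Rab genes passed for LPS in WT, KO and 3′F cells, and Rab1a, Rab2a, Rab5a, Rab11a and Rab40c lost the call in WT, Rab1a in KO and Rab40c in 3′F. With the replicate number as a block, which pairs no animals across genotypes, the counts were as without it, but Rab4a stood in place of Rab20 for KO against WT at rest and Rab32 in place of Rab35 for KO against 3′F with LPS. The blocked fit left the counts of 0 for 3′F against WT and for both interactions at 0. Swapping the state only within pairs of libraries, also chosen after seeing the data, left 8 of the 9 paralogue ratios past the threshold. Depth limits Rab38, Rab44 and Rab27a most, and the 15 untested members could not be compared.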
